A study of Homo sapiens with 18 samples.

Results

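CCN1, CCN2, ANKRD1, AMOTL1, AMOTL2, LATS2, AJUBA, WTIP, FJX1 and AXL are 10 target genes of the co-activator YAP and its DNA-binding partners, the TEAD factors, and several of them feed back on the Hippo pathway that controls YAP. They were chosen by name, as known targets. All 10 were found, under their current symbols or the older CYR61 for CCN1 and CTGF for CCN2, among the 35579 genes with estimated counts. All 10 also passed the count filter that left 13527 genes to be tested.

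In the Hippo pathway the kinases STK3 and STK4 activate LATS1 and LATS2, which phosphorylate YAP and its relative TAZ and hold them in the cytoplasm. Unphosphorylated YAP enters the nucleus and, bound to TEAD, raises transcription of matricellular, cytoskeletal and growth genes. In fibroblasts, cell spreading, stiff matrix and actin tension are known to favour nuclear YAP. CCN2 and ANKRD1 are widely used as readouts of that activity. The libraries measured mRNA only, and YAP protein, its phosphorylation and its place in the cell were not measured.

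Bulk poly(A) RNA was sequenced from hiF-T, a fibroblast-like human line derived from BJ skin fibroblasts that carries inducible telomerase (hTERT) and is labelled as wild type in every group. CRISPR guides were directed at CDKN1A, which encodes the cell cycle inhibitor p21 (4 libraries, guides 1 and 2), at KDM1A, which encodes the histone demethylase LSD1 (4 libraries, guides 2 and 3), or at SPP1, which encodes the secreted protein osteopontin (6 libraries, guides 1, 2 and 3). The control group had 4 libraries from 2 guides, titled as backbone. Each guide had biological replicates 1 and 2, so the 18 libraries came from 9 guides in 1 line. The labels call the perturbation a knockdown, and the sources used here do not say whether the line is a single clone, whether hTERT was induced, or whether replicates were separate transductions. If replicates were split from one transduced culture, the p-values measure only the spread between such libraries.

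The estimated counts summed to between 11907197 and 17016094 per library. Fibroblast markers summed to between 10440 and 13193 TPM (a level scaled by transcript length and library total) in SPP1 knockdown libraries and between 12165 and 13722 TPM in control libraries, with the CDKN1A and KDM1A knockdown libraries inside the control range or just below it. Markers of other cell types were read as whole lists. The 6 keratinocyte markers summed to 142.8 to 164.2, 168.7 to 178.9 and 152.7 to 195.5 TPM in the CDKN1A, KDM1A and SPP1 knockdowns, against 144.6 to 168.1 TPM in control, with KRT1 at 0 and KRT5 and DSG3 under 1 TPM in all libraries. The 5 leukocyte markers summed to 79.6 to 92.0, 58.0 to 78.1 and 75.1 to 91.6 TPM in the same knockdowns, against 65.6 to 86.9 TPM in control, and 3 of them, PTPRC and CD3E included, were under 1 TPM. The 5 endothelial markers summed to 24.4 to 30.6, 24.4 to 33.8 and 19.0 to 27.3 TPM, against 28.0 to 33.7 TPM in control, with VWF, KDR, CDH5 and PECAM1 under 1 TPM. The 5 melanocyte markers summed to 2.30 to 3.89, 1.81 to 4.25 and 1.13 to 3.18 TPM, against 0.946 to 2.21 TPM in control, with TYR and DCT under 1 TPM. The part of such cells in the results was not tested. The targeted mRNA averaged 58.3% of the control CPM (a count scaled to library size with TMM factors) in the CDKN1A knockdown, 53.0% in the KDM1A knockdown and 61.5% in the SPP1 knockdown. It was lower with adjusted p values of 0.00394 for CDKN1A and 7.27e-06 for KDM1A, whereas SPP1 did not pass (adjusted p 0.0695). All adjusted p values come from edgeR's quasi-likelihood test with Benjamini-Hochberg adjustment over the 13527 genes, and a gene is said to rise or fall where that value is under 0.05.

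TEAD factors bind the core letters GGAATG, and the 250 bases before the RefSeq start of each gene were searched for them on both strands. The promoter table held 9 of the 10 genes, all but CCN1. CCN2 had 3 matches, ANKRD1 and WTIP had 2 each, AMOTL2 had 1, and the windows of AMOTL1, LATS2, AJUBA, FJX1 and AXL had 0. Among 35116 windows of the same length, 11.9% held at least 1 match, 0.940% at least 2 and 0.0826% at least 3. A second window in the table held 1 match each for AJUBA and AXL. Against control, CCN2 (3 matches) and WTIP (2) fell in each of the 3 knockdowns, and ANKRD1 (2) fell in the SPP1 knockdown. AMOTL2, with 1, was not called in any knockdown. Of the genes with 0, AMOTL1 fell and FJX1 rose in the KDM1A knockdown, and LATS2, AJUBA and AXL were not called in any. Whether the matches bear on these calls was not tested. The 4 windows with matches are shown, and that of FJX1 as an example without one. Each is written in the direction of the gene from RefSeq on GRCh38.p14, with the TEAD core in capitals (GGAATG on the strand of the gene, CATTCC on the other): CCN2 chr6:131951373-131951622 (minus strand), ANKRD1 chr10:90921088-90921337 (minus strand), WTIP chr19:34481508-34481757 (plus strand), AMOTL2 chr3:134374448-134374697 (minus strand) and FJX1 chr11:35618210-35618459 (plus strand).
CCN2: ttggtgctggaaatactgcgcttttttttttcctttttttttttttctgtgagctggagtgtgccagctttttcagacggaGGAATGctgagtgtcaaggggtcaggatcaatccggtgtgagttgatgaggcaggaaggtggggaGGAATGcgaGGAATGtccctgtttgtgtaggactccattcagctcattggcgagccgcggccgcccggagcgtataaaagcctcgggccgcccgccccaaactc
ANKRD1: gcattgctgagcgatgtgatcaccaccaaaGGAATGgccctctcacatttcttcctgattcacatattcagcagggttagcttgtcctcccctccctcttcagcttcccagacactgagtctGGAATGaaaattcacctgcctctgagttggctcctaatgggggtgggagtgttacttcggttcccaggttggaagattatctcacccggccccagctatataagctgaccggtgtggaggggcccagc
WTIP: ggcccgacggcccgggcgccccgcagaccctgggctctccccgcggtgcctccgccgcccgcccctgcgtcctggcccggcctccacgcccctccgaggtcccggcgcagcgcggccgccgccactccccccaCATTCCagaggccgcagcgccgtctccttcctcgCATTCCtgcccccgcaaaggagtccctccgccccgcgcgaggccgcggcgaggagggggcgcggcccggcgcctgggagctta
AMOTL2: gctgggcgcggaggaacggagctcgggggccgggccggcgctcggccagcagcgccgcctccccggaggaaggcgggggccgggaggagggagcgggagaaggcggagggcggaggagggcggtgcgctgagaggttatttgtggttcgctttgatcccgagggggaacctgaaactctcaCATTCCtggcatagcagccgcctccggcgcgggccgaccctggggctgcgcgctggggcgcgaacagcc
FJX1: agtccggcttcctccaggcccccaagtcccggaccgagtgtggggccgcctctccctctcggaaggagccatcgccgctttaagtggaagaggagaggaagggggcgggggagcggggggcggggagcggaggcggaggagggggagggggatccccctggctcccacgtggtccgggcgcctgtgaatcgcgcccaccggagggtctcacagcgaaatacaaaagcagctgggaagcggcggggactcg
The matches began 169, 104 and 95 bases before the start in CCN2, 220 and 128 bases before it in ANKRD1, 117 and 83 bases before it in WTIP, and 69 bases before it in AMOTL2. The transcript models of the annotation used for counting start 189 bases further upstream for ANKRD1 and 120 bases further upstream for WTIP, so that the match 128 bases before the start of ANKRD1 and both matches of WTIP lie inside those models. The AP-1 motif TGANTCA, read on both strands and overlapping no TEAD match, was found only in ANKRD1, where it began 195 bases before the start, and in 6.57% of all windows. The CArG box, bound by serum response factor, was found in none of the 9 windows and in 1.16% of all windows. These are matches of letters and not measured binding, and a window without a match leaves other elements of the gene unread.

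In the control libraries the genes spanned a wide range of mRNA levels per transcript length. CCN2 (960 ± 107 TPM, SD, n = 4) and CCN1 (937 ± 100 TPM) were highest, followed by the receptor gene AXL (390 ± 30.1 TPM), AMOTL2 (176 ± 12.9 TPM) and ANKRD1 (116 ± 8.05 TPM). FJX1 had 68.0 ± 6.89 TPM and AJUBA 66.9 ± 10.2 TPM. WTIP (28.0 ± 2.39 TPM), LATS2 (25.2 ± 1.45 TPM) and AMOTL1 (19.2 ± 3.63 TPM) were lowest. The neighbours CCN2 and CCN1, FJX1 and AJUBA, WTIP and LATS2, and LATS2 and AMOTL1 overlapped between libraries, while the other neighbours in this order did not. Most of the TPM of WTIP came from a transcript of 667 bases that held 14.8% of its counts, so its place in the order depends on how reads were shared between its transcripts. CCN1 was above CCN2 on average in each knockdown group, with 749 and 633 TPM in the CDKN1A knockdown, 785 and 717 TPM in the KDM1A knockdown, and 753 and 619 TPM in the SPP1 knockdown. ANKRD1 stood at 73.5 ± 10.8 TPM in the CDKN1A knockdown (n = 4), 153 ± 81.0 TPM in the KDM1A knockdown (n = 4) and 50.5 ± 19.5 TPM in the SPP1 knockdown (n = 6), below FJX1 and AJUBA in the last of these.

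Against control, 2 of the 10 genes fell and 0 rose in the CDKN1A knockdown, where 0.917% of all tested genes fell and 1.09% rose. In the KDM1A knockdown 3 fell and 1 rose, beside 3.72% and 5.33% of all tested genes, and in the SPP1 knockdown 4 fell and 0 rose, beside 3.06% and 2.40%. CCN2 and WTIP fell in the CDKN1A knockdown. In the KDM1A knockdown CCN2, WTIP and AMOTL1 fell and FJX1 rose, and in the SPP1 knockdown CCN1, CCN2, ANKRD1 and WTIP fell. The median log2 fold change of the 10 genes was -0.19 in the CDKN1A knockdown, -0.07 in the KDM1A knockdown and -0.14 in the SPP1 knockdown, and that of all tested genes was within 0.011 of 0 in each. The 3 comparisons share their 4 control libraries, so an unusual control library moves all of them alike. In bulk RNA, fewer cells that express a gene and less of its mRNA per cell cannot be told apart. The test counts both libraries of a guide as separate samples. With the libraries of each guide summed into 1 sample, 0 of the 10 genes were called against control by edgeR (3, 4 and 4 at an unadjusted p under 0.05 in the CDKN1A, KDM1A and SPP1 knockdowns), and the genes called in all numbered 1, 162 and 1, against 271, 1224 and 738 with the libraries apart. Without both libraries of control guide 1, 0 of the 10 genes were called in any of these comparisons either, and 42, 417 and 7 genes in all.

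**Figure D1:**
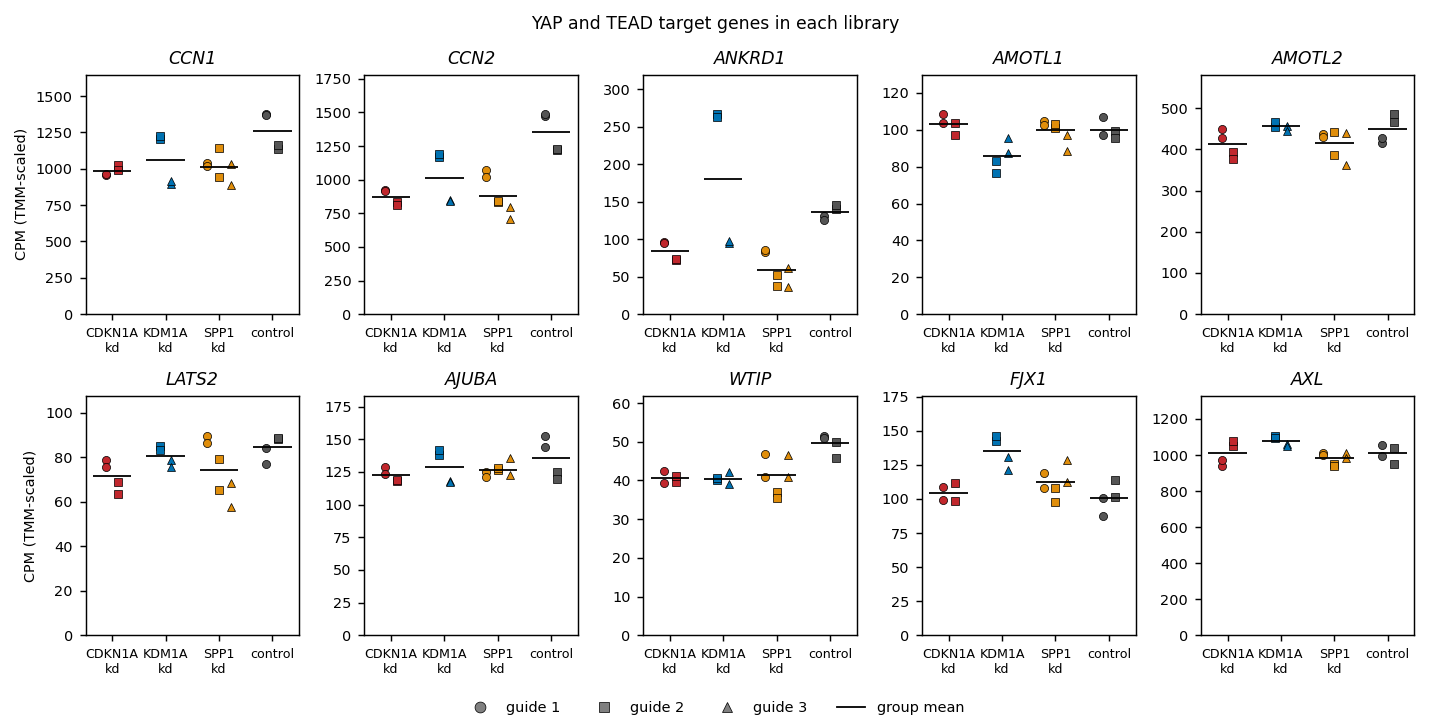
Level of each gene in every library, in CPM scaled by TMM factors on a linear axis from 0, for the CDKN1A, KDM1A and SPP1 knockdowns (kd) and the control group. Each symbol is 1 library, its shape gives the guide, and the line is the group mean. All 14 knockdown libraries lie below every control library for CCN2, and the KDM1A guides 2 and 3 lie apart for ANKRD1, at 264 to 266 CPM and 95.1 to 97.3 CPM.

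CCN2 (chr6:131948176-131951373) encodes connective tissue growth factor, a secreted matricellular protein that binds integrins and matrix. It had 926 and 915 CPM with CDKN1A guide 1 and 833 and 811 CPM with CDKN1A guide 2. It had 1169 and 1191 CPM with KDM1A guide 2 and 848 and 840 CPM with KDM1A guide 3. With SPP1 guides 1, 2 and 3 it had 1069 and 1020, 831 and 844, and 799 and 706 CPM. The control libraries had 1473 and 1485 CPM with guide 1 and 1224 and 1230 CPM with guide 2. All 14 knockdown libraries were therefore below the lowest control library, which was so for no other of the 10 genes and for 0.281% of all tested genes. The fall came to a log2 fold change of -0.64 ± 0.13 (SE) in the CDKN1A knockdown (adjusted p 0.0165), -0.42 ± 0.13 in the KDM1A knockdown (adjusted p 0.0463) and -0.62 ± 0.12 in the SPP1 knockdown (adjusted p 0.00574). Within the control group CCN2 was lower with guide 2 than with guide 1 (log2 difference -0.27 ± 0.05, adjusted p 0.0222), so the size of every fall depends on which control guide it is set against. The call in the KDM1A knockdown was lost with other size factors (adjusted p 0.0502) and with a block by replicate number (0.0576). It was also lost with the 2 groups alone (0.0655) and with an offset for transcript length (0.0769). In the SPP1 knockdown the call held without any one library, but not without both of control guide 1 (adjusted p 0.162). In the CDKN1A knockdown it was lost without either library of control guide 1 or of CDKN1A guide 2 (adjusted p 0.0509 to 0.0687), and in the KDM1A knockdown it was lost without any library (adjusted p 0.0506 to 0.147) other than those of KDM1A guide 2 and SPP1 guide 1, control guide 2 replicate 2 and SPP1 guide 3 replicate 2. The CDKN1A call was also lost without both libraries of control guide 1 or of either CDKN1A guide (adjusted p 0.0524 to 0.201). The KDM1A call was lost without both of control guide 1, either CDKN1A guide, KDM1A guide 3 or SPP1 guide 2 (adjusted p 0.0635 to 0.445).

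The related CCN1 (chr1:85580761-85583962), also a secreted integrin ligand, showed smaller differences. It had 959 and 961 CPM with CDKN1A guide 1 and 1025 and 990 CPM with CDKN1A guide 2. With KDM1A guides 2 and 3 it had 1208 and 1223, and 894 and 918 CPM. With SPP1 guides 1, 2 and 3 it had 1039 and 1018, 1141 and 944, and 889 and 1034 CPM, and in control libraries 1373 and 1368 CPM with guide 1 and 1134 and 1163 CPM with guide 2. The CDKN1A knockdown libraries were all below the control libraries, whereas KDM1A guide 2 and 1 SPP1 library lay among them. CCN1 fell in the SPP1 knockdown (log2 -0.32 ± 0.09, adjusted p 0.0427), a call lost without any library (adjusted p 0.0521 to 0.163) other than those of control guide 2 and the KDM1A guides, SPP1 guide 2 replicate 1 and SPP1 guide 3 replicate 2. That call was also lost with a block by replicate number (adjusted p 0.0555) and with an offset for transcript length (0.0875). CCN1 did not pass in the CDKN1A knockdown (-0.36 ± 0.10, adjusted p 0.0645, or 0.0148 with DESeq2) or the KDM1A knockdown (-0.25 ± 0.10, adjusted p 0.128).

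ANKRD1 (chr10:90912096-90921276) encodes an ankyrin repeat protein of the sarcomere and nucleus, studied mainly in heart and skeletal muscle. Its levels varied most of the 10, with an SD of log2 CPM over the 18 libraries of 0.79, at the 97.0th percentile of all tested genes. It had 96.5 and 94.4 CPM with CDKN1A guide 1 and 72.3 and 74.1 CPM with CDKN1A guide 2. KDM1A guide 2 gave 266 and 264 CPM and KDM1A guide 3 gave 95.1 and 97.3 CPM. With SPP1 guides 1, 2 and 3 it had 83.3 and 85.5, 37.6 and 52.6, and 62.2 and 35.7 CPM, against 131, 126, 140 and 146 CPM in the control libraries. Every CDKN1A and SPP1 knockdown library was below every control library, while in the KDM1A knockdown 2 libraries were below and 2 above all of them. ANKRD1 fell in the SPP1 knockdown (log2 -1.18 ± 0.28, adjusted p 0.0201), a call lost without control guide 1 replicate 2 (adjusted p 0.0593). The call was also lost without both libraries of either control guide, of SPP1 guide 2 or of SPP1 guide 3 (adjusted p 0.067 to 0.143). ANKRD1 did not pass in the CDKN1A knockdown (-0.69 ± 0.31, adjusted p 0.269; adjusted p 0.00298 with those 2 groups fitted alone). The KDM1A knockdown mean of 181 ± 97.5 CPM (SD, n = 4) describes neither guide, and its log2 fold change of 0.41 ± 0.30 did not pass (adjusted p 0.458). Without the guide 2 libraries it was -0.49, and without the guide 3 libraries 0.97.

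**Figure D2:**
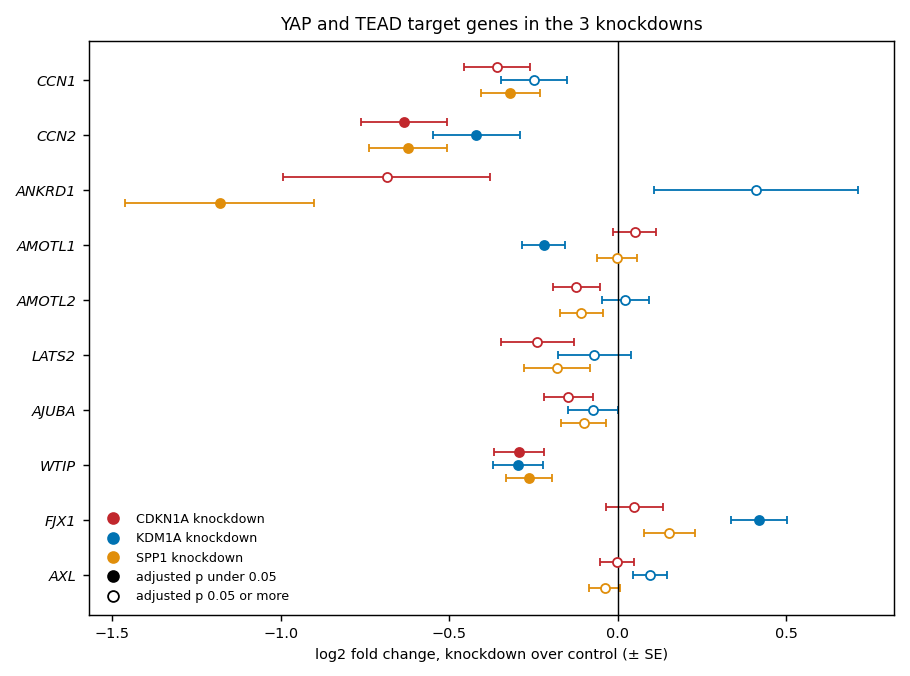
Log2 fold change of each gene in the CDKN1A, KDM1A and SPP1 knockdowns over control, with bars of 1 SE from the fit over all 18 libraries; filled points have an adjusted p under 0.05. CCN2 and WTIP are filled in all 3 knockdowns, ANKRD1 in the SPP1 knockdown at -1.18, and FJX1 in the KDM1A knockdown at 0.42.

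AMOTL1, AMOTL2, LATS2, AJUBA and WTIP encode regulators that act back on YAP. AMOTL1 and AMOTL2 are angiomotin-like scaffolds that bind YAP and hold it at junctions and actin, LATS2 is the kinase that phosphorylates it, and the LIM-domain proteins AJUBA and WTIP bind LATS kinases and restrain them. Of these 5 genes, WTIP fell in each knockdown and AMOTL1 in the KDM1A knockdown, while AMOTL2, LATS2 and AJUBA did not pass in any. None of the 5 rose.

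WTIP (chr19:34481638-34512304) had 39.3 and 42.4 CPM with CDKN1A guide 1, 39.6 and 41.1 CPM with CDKN1A guide 2, 40.0 and 40.6 CPM with KDM1A guide 2 and 39.1 and 42.2 CPM with KDM1A guide 3. With SPP1 guides 1, 2 and 3 it had 46.9 and 41.0, 37.1 and 35.4, and 40.9 and 46.7 CPM, against 51.6, 51.1, 50.0 and 45.9 CPM in the control libraries. The CDKN1A and KDM1A knockdown libraries were all below the control libraries, and 4 of the 6 SPP1 libraries were. The log2 fold changes were -0.29 ± 0.07 (adjusted p 0.0480) in the CDKN1A knockdown, -0.30 ± 0.07 (adjusted p 0.0161) in the KDM1A knockdown and -0.26 ± 0.07 (adjusted p 0.0299) in the SPP1 knockdown. With an offset for transcript length none of these passed (adjusted p 0.265, 0.331 and 0.282 for the CDKN1A, KDM1A and SPP1 knockdowns). The CDKN1A call was lost without any library (adjusted p 0.0549 to 0.137) other than control guide 2 replicate 2, SPP1 guide 1 replicate 1, both of SPP1 guide 2 and SPP1 guide 3 replicate 2. The KDM1A call was lost without either library of control guide 1 (adjusted p 0.0507 to 0.0538), and the SPP1 call without either of those, either of SPP1 guide 2, control guide 2 replicate 1 or SPP1 guide 3 replicate 1 (adjusted p 0.0543 to 0.104).

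AMOTL1 (chr11:94706431-94876753) had 76.6 and 83.0 CPM with KDM1A guide 2 and 95.5 and 87.5 CPM with KDM1A guide 3, against 97.4, 107, 99.4 and 95.3 CPM in control libraries. Thus 1 KDM1A library lay just inside the control range. The log2 fold change was -0.22 ± 0.06 (adjusted p 0.0380), and the call was lost without any library (adjusted p 0.0517 to 0.155) other than control guide 2 replicate 2, CDKN1A guide 2 replicate 2, KDM1A guide 3 replicate 1 and the SPP1 libraries apart from SPP1 guide 3 replicate 1. It was also lost with no count filter (adjusted p 0.0617), the 2 groups alone (0.0859) and an offset for transcript length (0.103). In the other knockdowns AMOTL1 stood at 103 ± 4.59 CPM (CDKN1A, n = 4) and 99.6 ± 5.92 CPM (SPP1, n = 6), against 95.3 to 107 CPM in control (n = 4).

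AMOTL2 (chr3:134355874-134375479) had 412 ± 32.6 CPM in the CDKN1A knockdown, 456 ± 8.43 CPM in the KDM1A knockdown and 416 ± 34.0 CPM in the SPP1 knockdown, against 449 ± 32.8 CPM in control. LATS2 (chr13:20973032-21061547) had 71.6 ± 6.90, 80.6 ± 4.35 and 74.5 ± 12.8 CPM in the CDKN1A, KDM1A and SPP1 knockdowns and 84.6 ± 5.54 CPM in control. AJUBA (chr14:22971174-22982642) had 122 ± 4.81, 129 ± 12.7 and 126 ± 5.41 CPM in the same order of knockdowns and 135 ± 15.5 CPM in control. For each of these 3 genes every knockdown group overlapped the control libraries, and the log2 fold changes lay between -0.24 ± 0.11 (LATS2 in the CDKN1A knockdown, adjusted p 0.276) and 0.02 ± 0.07 (AMOTL2 in the KDM1A knockdown, adjusted p 0.893).

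FJX1 (chr11:35618419-35620868) is the human counterpart of the Drosophila gene four-jointed, whose product is a Golgi kinase that modifies the cadherins Fat and Dachsous. It had 142 and 147 CPM with KDM1A guide 2 and 131 and 121 CPM with KDM1A guide 3, all above the 101, 87.7, 114 and 102 CPM of the control libraries. It rose with a log2 fold change of 0.42 ± 0.08 (adjusted p 0.00286), and the call held without any one library. It was lost without both libraries of control guide 1 (log2 0.33, adjusted p 0.0812) or of KDM1A guide 2 (log2 0.32, adjusted p 0.0634). FJX1 did not pass in the CDKN1A knockdown (104 ± 6.81 CPM, log2 0.05 ± 0.08, adjusted p 0.825) or in the SPP1 knockdown (112 ± 10.4 CPM, log2 0.15 ± 0.08, adjusted p 0.266), against 101 ± 10.7 CPM in control.

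AXL (chr19:41219203-41261766), a receptor tyrosine kinase for the ligand GAS6, was the steadiest of the 10 genes, with an SD of log2 CPM of 0.08 at the 6.28th percentile of all tested genes. It had 1009 ± 65.7 CPM in the CDKN1A knockdown, 1079 ± 27.1 CPM in the KDM1A knockdown and 983 ± 30.5 CPM in the SPP1 knockdown, against 1009 ± 48.3 CPM in control. The log2 fold changes were 0.00 ± 0.05, 0.10 ± 0.05 and -0.04 ± 0.05 in those knockdowns, with adjusted p values of 0.996, 0.274 and 0.700.

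Groups that did not overlap with control were counted as well. In the CDKN1A knockdown CCN1, CCN2, ANKRD1 and WTIP were below every control library, as 6.65% of tested genes were. In the KDM1A knockdown CCN2 and WTIP were below every control library (7.49% of tested genes) and FJX1 above every one (8.19%), and in the SPP1 knockdown CCN2 and ANKRD1 were below (3.37%).

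Set against control guide by guide, with 1 coefficient per guide and the spread taken from the replicates of a guide, the CDKN1A and KDM1A guides each called more of the 10 genes than their group did, and the SPP1 guides called 3, 4 and 4, against 4 for their group. CDKN1A guide 1 called 3 of the 10 genes, all lower (2.34% of tested genes were lower), and CDKN1A guide 2 called 6, all lower (3.32%). KDM1A guide 2 called 5, with ANKRD1 and FJX1 higher and CCN2, AMOTL1 and WTIP lower (8.41% of tested genes higher and 5.68% lower). KDM1A guide 3 called 6, with FJX1 higher and CCN1, CCN2, ANKRD1, AJUBA and WTIP lower (6.34% higher and 5.16% lower). SPP1 guide 1 called CCN1, CCN2 and ANKRD1 (2.59% of tested genes lower), guide 2 these and WTIP (5.23%), and guide 3 CCN1, CCN2, ANKRD1 and LATS2 (5.99%), all lower. These fits set 2 libraries of a guide against 4 control libraries and treat the 2 control guides as 1 reference.

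CCN2 was lower with each of the 7 guides, from a log2 fold change of -0.19 ± 0.05 with KDM1A guide 2 (adjusted p 0.0130) to -0.84 ± 0.05 with SPP1 guide 3 (adjusted p 6.32e-08). The call for KDM1A guide 2 was lost without either of its libraries (adjusted p 0.106 and 0.147), and the other 6 held without any one library. ANKRD1 reached its lowest levels with SPP1 guides 2 (-1.59 ± 0.16, adjusted p 1.46e-05) and 3 (-1.46 ± 0.15, adjusted p 2.52e-05), and rose with KDM1A guide 2 (0.97 ± 0.13, adjusted p 0.000125). These ANKRD1 calls, and that for CDKN1A guide 2 (-0.89 ± 0.14, adjusted p 0.0018), held without any one library. The call for KDM1A guide 3 (-0.49 ± 0.14, adjusted p 0.0317) was lost without any library (adjusted p up to 0.193) other than the 6 SPP1 libraries, CDKN1A guide 2 replicate 1 and KDM1A guide 2 replicate 1, and that for SPP1 guide 1 (-0.68 ± 0.14, adjusted p 0.0118) without either of its own (adjusted p 0.114 to 0.138). ANKRD1 with CDKN1A guide 1 did not pass (-0.51 ± 0.14, adjusted p 0.0513).

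CCN1 was called with every guide except KDM1A guide 2 (-0.05 ± 0.07, adjusted p 0.721), and only KDM1A guide 3 (-0.47 ± 0.07, adjusted p 0.000339) and SPP1 guide 3 (-0.39 ± 0.07, adjusted p 0.00208) kept the call without any one library. Those for CDKN1A guides 1 and 2 were lost without either library of the guide (adjusted p 0.0704 to 0.183), that for SPP1 guide 1 also without either of control guide 2 (adjusted p 0.0545 to 0.215), and that for SPP1 guide 2 without its replicate 2 or control guide 2 replicate 2 (adjusted p 0.0509 to 0.246). The log2 fold change of CCN1 with SPP1 guide 2, -0.27, was -0.41 without its replicate 1 and -0.14 without its replicate 2. WTIP was lower with both CDKN1A guides, both KDM1A guides and SPP1 guide 2, by log2 fold changes of -0.28 ± 0.07 to -0.45 ± 0.07, and of these the call for SPP1 guide 2 (adjusted p 0.00129) held without any one library. The WTIP calls for KDM1A guide 2 were lost without either of its libraries (adjusted p 0.0967 to 0.104), for KDM1A guide 3 without either of its own or control guide 2 replicate 1 (adjusted p 0.0613 to 0.196), and for CDKN1A guide 2 without either of its own or replicate 1 of either control guide (adjusted p 0.0553 to 0.198). That for CDKN1A guide 1 was lost without any CDKN1A library, either of KDM1A guide 2, either of control guide 1 or control guide 2 replicate 1 (adjusted p 0.0546 to 0.355). AMOTL1 was lower with KDM1A guide 2 (-0.32 ± 0.06, adjusted p 0.00226), a call lost without its replicate 1 (adjusted p 0.0714). LATS2 was lower with CDKN1A guide 2 (-0.35 ± 0.08, adjusted p 0.0158) and SPP1 guide 3 (-0.42 ± 0.08, adjusted p 0.00336). The LATS2 call for SPP1 guide 3 was lost without its replicate 2 (adjusted p 0.0514), and that for CDKN1A guide 2 without either of its libraries or control guide 2 replicate 1 (adjusted p 0.0518 to 0.253). AJUBA was lower with CDKN1A guide 2 (-0.18 ± 0.05, adjusted p 0.0425) and KDM1A guide 3 (-0.19 ± 0.05, adjusted p 0.0191), but in control it was itself lower with guide 2 than with guide 1 (125 and 120 CPM against 144 and 153 CPM; log2 -0.28 ± 0.06, adjusted p 0.0272). The AJUBA call for CDKN1A guide 2 was lost without any library (adjusted p 0.0533 to 0.287) other than control guide 1 replicate 1, SPP1 guide 2 replicate 2 and both of SPP1 guide 3, and that for KDM1A guide 3 without either of its own, control guide 1 replicate 2 or control guide 2 replicate 1 (adjusted p 0.0648 to 0.168). FJX1 rose with KDM1A guide 2 (0.52 ± 0.08, adjusted p 0.000452), which held without any one library. Its rise with KDM1A guide 3 (0.32 ± 0.08, adjusted p 0.0169) was lost without either library of that guide or control guide 2 replicate 2 (adjusted p 0.0503 to 0.165).

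**Figure D3:**
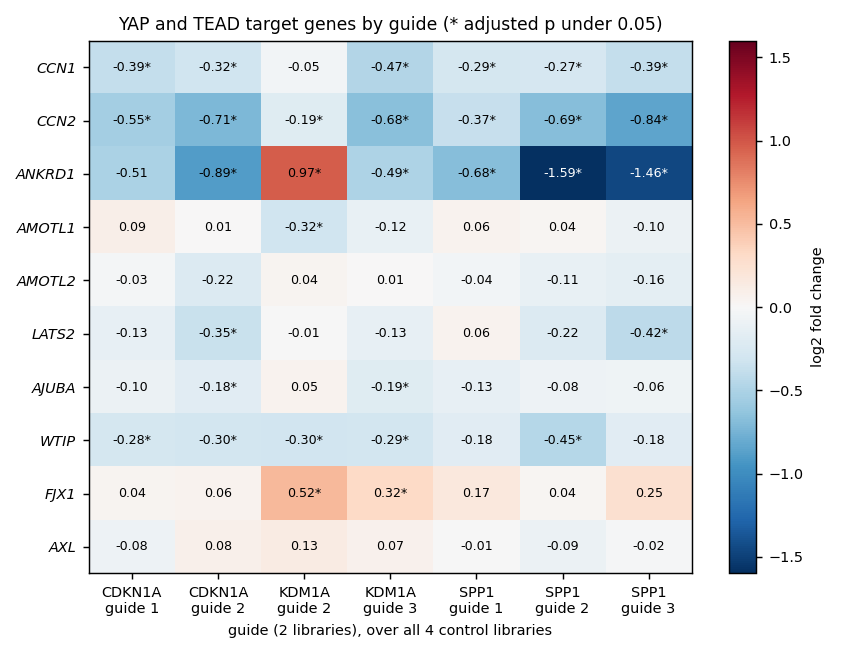
Log2 fold change of each gene (rows) with each guide (columns, 2 libraries each) over the 4 control libraries, on a colour scale from -1.6 (blue) to 1.6 (red); a star marks an adjusted p under 0.05. CCN2 carries a star in all 7 columns, and ANKRD1 runs from -1.59 with SPP1 guide 2 to 0.97 with KDM1A guide 2.

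Guides with the same target were then compared directly. KDM1A guide 3 had lower levels than KDM1A guide 2 for 4 of the 10 genes (4.04% of tested genes were lower), namely ANKRD1 (log2 -1.46 ± 0.16, adjusted p 4.03e-05), CCN2 (-0.48 ± 0.05, adjusted p 6.22e-05), CCN1 (-0.42 ± 0.08, adjusted p 0.00391) and AJUBA (-0.25 ± 0.06, adjusted p 0.0190). The CCN1 call was lost without KDM1A guide 3 replicate 1 (adjusted p 0.0505) and the AJUBA call without any of the 4 libraries (adjusted p 0.0857 to 0.159). Among SPP1 guides 1, 2 and 3, CCN2 (adjusted p 0.000777), ANKRD1 (adjusted p 0.0133) and LATS2 (adjusted p 0.0202) differed in a test over all 3 guides, which called 3.33% of tested genes. Between SPP1 guides 3 and 1, where 1.69% of tested genes were lower with guide 3, the log2 difference was -0.47 ± 0.05 for CCN2 (adjusted p 0.000397), which held without any one library, -0.77 ± 0.17 for ANKRD1 (adjusted p 0.0245; -1.25 without guide 3 replicate 1 and -0.44 without guide 3 replicate 2) and -0.48 ± 0.09 for LATS2 (adjusted p 0.0105), which were both lost without SPP1 guide 3 replicate 2 or either library of SPP1 guide 1 (adjusted p 0.0646 to 0.149). SPP1 guide 2 was below SPP1 guide 1 for 2 of the 10 genes (1.13% of tested genes were lower), with log2 differences of -0.32 ± 0.05 for CCN2 (adjusted p 0.00786) and -0.90 ± 0.17 for ANKRD1 (adjusted p 0.0157). Both calls were lost without SPP1 guide 1 replicate 1 or SPP1 guide 2 replicate 1, and that for ANKRD1 also without SPP1 guide 1 replicate 2 (adjusted p 0.0757 to 0.177). Between CDKN1A guide 2 and CDKN1A guide 1, 0 of the 10 genes differed in edgeR or DESeq2 (1.28% of tested genes called in edgeR), and 5 had an unadjusted p under 0.05. Control guide 2 was lower than control guide 1 for CCN2 and AJUBA (0.784% of tested genes were lower), both lost when any 1 of the 4 control libraries was left out, or any CDKN1A or KDM1A library (adjusted p 0.0519 to 0.312).

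The guides also differed in how much of their own target mRNA was left. KDM1A mRNA was at 50.7 and 52.0 CPM with guide 3 and 73.2 and 75.0 CPM with guide 2, against 110 to 125 CPM in control libraries. CDKN1A mRNA was at 290 and 275 CPM with guide 1 and 435 and 427 CPM with guide 2, against 540 to 695 CPM in control libraries. SPP1 mRNA was at 24.2 and 26.9 CPM with guide 1, 47.4 and 55.2 CPM with guide 2, and 63.0 and 21.7 CPM with guide 3, against 55.2 to 72.7 CPM in control libraries. Of the SPP1 guides, only guide 1 passed for its own target (adjusted p 0.00827, with 0.443 for guide 2 and 0.144 for guide 3). CDKN1A mRNA averaged 79.5% of the control CPM in the KDM1A knockdown and 80.3% in the SPP1 knockdown (adjusted p 0.112 and 0.116). By guide it was lower with KDM1A guide 3 (adjusted p 0.00547) and SPP1 guides 1 (0.041) and 3 (0.0117). SPP1 mRNA averaged 204.4% of the control CPM in the KDM1A knockdown (adjusted p 0.00793) and 180.7% in the CDKN1A knockdown (0.0645). SPP1 guide 1, with the least SPP1 mRNA on average, was the SPP1 guide with the highest CCN2 and ANKRD1, by the differences and with the lost calls given above. The single library with the least SPP1 mRNA went the other way. This was SPP1 guide 3 replicate 2 (21.7 CPM), with the lowest CCN2 (706 CPM) and ANKRD1 (35.7 CPM) of the 18 libraries. The SPP1 guide 1 libraries, next in SPP1 mRNA, had the highest CCN2 of the SPP1 libraries (1069 and 1020 CPM). SPP1 guide 3 replicate 1, with the most SPP1 mRNA of them, had 799 CPM of CCN2. KDM1A guide 3, with less KDM1A mRNA than KDM1A guide 2, had the lower CCN2 and ANKRD1. Whether the remaining target mRNA bears on these levels was not tested.

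The knockdowns were also set against each other. KDM1A against CDKN1A knockdown called 3 of the 10 genes (14.9% of tested genes called), with ANKRD1 (log2 1.10 ± 0.31, adjusted p 0.0209) and FJX1 (0.37 ± 0.08, adjusted p 0.00498) higher and AMOTL1 (-0.27 ± 0.06, adjusted p 0.00764) lower. SPP1 against KDM1A knockdown called 3 genes (11.9% of tested genes called), with ANKRD1 (-1.59 ± 0.28, adjusted p 0.000899) and FJX1 (-0.27 ± 0.08, adjusted p 0.0264) lower and AMOTL1 (0.22 ± 0.06, adjusted p 0.0211) higher. Both comparisons hold the KDM1A libraries, and both ANKRD1 differences rested on KDM1A guide 2. Without its libraries the ANKRD1 difference was 0.19 (adjusted p 0.737) against the CDKN1A knockdown and -0.69 (adjusted p 0.167) for SPP1 against KDM1A. The call for KDM1A against CDKN1A was also lost without either library of CDKN1A guide 2 or either of KDM1A guide 2 (adjusted p 0.0638 to 0.091). For SPP1 against KDM1A, the AMOTL1 call was lost without either library of KDM1A guide 2 (adjusted p 0.0922 to 0.122), and the FJX1 call without either of those or SPP1 guide 2 replicate 2 (adjusted p 0.0514 to 0.111). Without both libraries of KDM1A guide 2 the AMOTL1 and FJX1 calls were lost in both comparisons. The KDM1A against CDKN1A calls were lost too without CDKN1A guide 1 (AMOTL1) or 2 (FJX1) (adjusted p 0.0502 to 0.155). Those for SPP1 against KDM1A were lost too without SPP1 guide 2, or guide 1 for AMOTL1 (0.0799 to 0.457). With a length offset neither AMOTL1 difference passed (0.0801 and 0.289), nor did that for SPP1 against KDM1A with the 2 groups alone (0.0732). SPP1 against CDKN1A knockdown called 0 of the 10 genes in edgeR and in DESeq2 (12.0% of tested genes called in edgeR), with 0 at an unadjusted p under 0.05. The differences there ranged from -0.50 ± 0.29 for ANKRD1 to 0.10 ± 0.08 for FJX1.

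In libraries, AMOTL1 was lower and FJX1 higher in every KDM1A library than in every CDKN1A library, among 24.2% of tested genes whose libraries did not overlap. AMOTL2, ANKRD1 and AXL were lower in every SPP1 library than in every KDM1A library (5.45% of tested genes), although the AMOTL2 and AXL differences did not pass (log2 -0.13 ± 0.06, adjusted p 0.204, and -0.14 ± 0.05, adjusted p 0.0636). For AXL the adjusted p was 0.0158 with DESeq2.

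The sum of squares of each gene's log2 CPM was split into shares for the groups, the guides within them, and the libraries of each guide. Each group mean is taken over a few guides, so differences between guides also add to the share between groups. That share is therefore not the part due to the target. For CCN2, 66.0% lay between groups, 32.9% between guides and 1.15% between libraries of a guide, and for ANKRD1 64.5%, 31.4% and 4.14%. AJUBA (70.3%) and LATS2 (56.8%) had most of theirs between guides of a group. The medians over all tested genes were 33.1%, 29.8% and 32.1% for the same parts, and 9 of the 10 genes, all but AMOTL2 (29.8%), had 16.0% or less between libraries of a guide. Genes with few counts vary more between libraries, and over genes whose mean log2 CPM reached 5, which all 10 exceeded, that median was 26.8%.

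**Figure D4:**
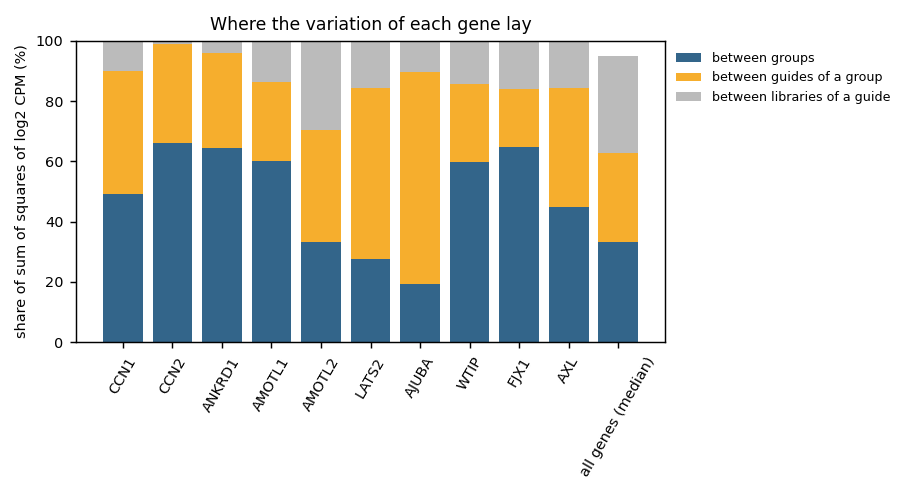
Share (%) of each gene's sum of squares of log2 CPM assigned to the groups, to the guides within them and to the libraries of each guide, over 18 libraries, with the median of each share over all 13527 tested genes at the right; those medians do not add to the full height. For CCN2 the libraries of a guide account for 1.15%, and for AJUBA the guides of a group for 70.3%.

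The genes whose pattern over the 18 libraries was most like that of CCN1, CCN2 and ANKRD1 were found from the root mean square difference of centred log2 CPM, among the 9480 genes whose mean log2 CPM reached 3. For CCN1 they were BMP1, a procollagen protease (0.08), the proteoglycan SDC2 (0.08) and the integrin activator FERMT2 (0.10). For CCN2 they included the CTP synthase gene CTPS1 (0.10) and the heparan sulfate enzyme gene HS6ST1 (0.13). ANKRD1, with larger swings, was nearest to the endothelin gene EDN1 (0.34), IGFBP3 (0.35) and the smooth muscle actin gene ACTA2 (0.35). The same measure comes to 0.19, 0.31 and 0.77 for CCN1, CCN2 and ANKRD1 set against a flat pattern. Within the set, the nearest other gene was AJUBA for CCN1 (27th of all genes ranked), CCN1 for CCN2 (25th) and CCN2 for ANKRD1 (81st). The farthest was ANKRD1 for both CCN1 (9440th) and CCN2 (9355th), and AMOTL1 for ANKRD1 (7855th). Seen from CCN1, CCN2 was only 1211th, at a difference of 0.19, as large as that of CCN1 from a flat pattern. Likeness is a description of these 18 libraries, whose depth and guide effects all genes share.

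The upstream pathway was read from 19 genes of the Hippo core and its inputs, all tested. In the CDKN1A knockdown 1 rose and 0 fell, in the KDM1A knockdown 1 rose and 2 fell, and in the SPP1 knockdown 1 rose and 1 fell. Over all tested genes 1.09% rose and 0.917% fell in the CDKN1A knockdown, 5.33% and 3.72% in the KDM1A knockdown, and 2.40% and 3.06% in the SPP1 knockdown, and with summed guides 0 of the 19 were called in any. MAP4K4, a kinase that can activate LATS1 and LATS2, rose in the CDKN1A knockdown to 641 ± 20.7 CPM (log2 0.31 ± 0.07, adjusted p 0.0243) and in the SPP1 knockdown to 661 ± 45.2 CPM (0.35 ± 0.06, adjusted p 0.00472), against 517 ± 35.8 CPM in control. FRMD6, a membrane-linked upstream regulator, fell to 451 ± 35.2 CPM in the KDM1A knockdown (-0.36 ± 0.08, adjusted p 0.004) and 480 ± 27.3 CPM in the SPP1 knockdown (-0.27 ± 0.07, adjusted p 0.0256), against 580 ± 57.2 CPM in control. In the KDM1A knockdown the adaptor SAV1 also fell (-0.23 ± 0.06, adjusted p 0.0134) and the kinase STK4 rose (0.18 ± 0.05, adjusted p 0.0288). The median log2 fold changes of the 19 genes were 0.04, -0.08 and -0.05 in the CDKN1A, KDM1A and SPP1 knockdowns.

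YAP1 (84.6 ± 3.60 TPM), WWTR1, which encodes TAZ (55.9 ± 4.24 TPM), TEAD4 (89.2 ± 3.75 TPM) and TEAD1 (80.8 ± 9.42 TPM) were all expressed in control libraries (n = 4). Of the 10 YAP, TAZ, TEAD and VGLL genes 8 were tested, VGLL1 and VGLL2 having too few counts. By edgeR 0, 1 and 2 of the 8 fell in the CDKN1A, KDM1A and SPP1 knockdowns, and 0 rose. Over all tested genes 0.917%, 3.72% and 3.06% fell and 1.09%, 5.33% and 2.40% rose. With summed guides 0 of the 8 were called in any of the 3. In the CDKN1A knockdown 0 of the 8 were called by edgeR or DESeq2, and 3 had an unadjusted p under 0.05 in each. TEAD2 fell in the KDM1A knockdown (20.5 ± 2.05 CPM against 24.8 ± 1.56 CPM in control; log2 -0.27 ± 0.08, adjusted p 0.0314). TEAD4 (57.0 ± 6.58 CPM against 71.4 ± 2.66 CPM in control; -0.32 ± 0.07, adjusted p 0.0117) and VGLL3, a TEAD-binding cofactor (167 ± 28.5 CPM against 224 ± 15.0 CPM in control; -0.42 ± 0.10, adjusted p 0.0164), fell in the SPP1 knockdown (n = 6). YAP1, WWTR1, TEAD1, TEAD3 and VGLL4 were called in none of the 3.

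Another 15 genes from published YAP and TAZ signatures, of which 14 were tested, gave 1 fall in the CDKN1A knockdown, 1 in the KDM1A knockdown and 3 in the SPP1 knockdown, and no rise, beside 0.917%, 3.72% and 3.06% of all tested genes that fell. With summed guides 0 of them were called in any of the 3. IGFBP3, an insulin-like growth factor binding protein, fell to 169 ± 44.3 CPM in the SPP1 knockdown, against 347 ± 43.7 CPM in control (log2 -1.04 ± 0.27, adjusted p 0.0321). GADD45A, a stress-response gene, fell in the KDM1A knockdown (132 ± 12.1 CPM, log2 -0.41 ± 0.09, adjusted p 0.00527) and the SPP1 knockdown (126 ± 16.0 CPM, -0.47 ± 0.08, adjusted p 0.00326), against 175 ± 12.2 CPM in control. ARHGEF17 fell in the CDKN1A knockdown (93.1 ± 3.25 CPM, -0.29 ± 0.04, adjusted p 0.00179) and the SPP1 knockdown (102 ± 2.46 CPM, -0.16 ± 0.04, adjusted p 0.0302), against 114 ± 5.85 CPM in control. The medians of the 14 were -0.10, 0.00 and -0.07 in the CDKN1A, KDM1A and SPP1 knockdowns.

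Of 13 targets of serum response factor and its actin-sensing partners, 2 fell in the CDKN1A knockdown, 1 in the KDM1A knockdown and 4 in the SPP1 knockdown, and 0 rose, beside falls of 0.917%, 3.72% and 3.06% of all tested genes. With summed guides 0 of the 13 were called in any. TPM1, a tropomyosin, fell to 947 ± 114 CPM in the SPP1 knockdown, against 1476 ± 155 CPM in control (log2 -0.64 ± 0.16, adjusted p 0.0223), and ACTB to 7392 ± 936 CPM, against 9151 ± 375 CPM (-0.31 ± 0.08, adjusted p 0.0241). Of 12 TGF-beta and SMAD targets, 1, 4 and 5 fell in the CDKN1A, KDM1A and SPP1 knockdowns and 0 rose, set beside the same shares of all tested genes, and with summed guides 0, 1 and 0 were called. SMAD7, an inhibitor of the pathway, fell to 51.9 ± 6.66 CPM in the SPP1 knockdown, against 86.6 ± 3.78 CPM in control (-0.74 ± 0.17, adjusted p 0.0159). In the CDKN1A, KDM1A and SPP1 knockdowns the median log2 fold changes were -0.33, 0.02 and -0.27 for the 13 serum response factor targets. They were -0.12, -0.21 and -0.41 for the 12 TGF-beta and SMAD targets, beside -0.19, -0.07 and -0.14 for the 10 YAP and TEAD targets. CCN2 is a known target of both TGF-beta and YAP, and the part of either input in its levels was not tested.

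Of 16 immediate early genes 13 were tested, and 2, 3 and 5 fell in the CDKN1A, KDM1A and SPP1 knockdowns, with 0 rises, beside 0.917%, 3.72% and 3.06% of all tested genes that fell. With summed guides 0, 1 and 0 were called. The median log2 fold changes of the 13 were -0.09, -0.15 and -0.17 in the same knockdowns. The AP-1 gene FOS had 6.10 to 8.11 CPM in the CDKN1A knockdown, 5.80 to 7.13 CPM in the KDM1A knockdown and 9.26 to 12.4 CPM in the SPP1 knockdown, against 8.47 to 31.8 CPM in control libraries. Its control libraries thus spread over more than the knockdown libraries did, and the SPP1 libraries lay inside their range. FOSB ranged likewise from 5.15 to 26.8 CPM in control. ATF3, a stress-induced factor, fell in the KDM1A knockdown (3.72 ± 0.67 CPM, log2 -1.74 ± 0.24, adjusted p 0.000113) and the SPP1 knockdown (4.49 ± 1.69 CPM, -1.45 ± 0.21, adjusted p 0.00209), against 12.4 ± 2.79 CPM in control. Of 15 paralogues and binding partners of the 10 genes, among them GAS6, AMOT, LATS1 and CCN3, 10 were tested. By edgeR 0 were called in any of the 3 knockdowns, with 2 at an unadjusted p under 0.05 in each, and by DESeq2 1 was called in the CDKN1A knockdown and 1 in the SPP1 knockdown. Over all tested genes edgeR called 0.917%, 3.72% and 3.06% lower and 1.09%, 5.33% and 2.40% higher in the CDKN1A, KDM1A and SPP1 knockdowns. With summed guides 0 of the paralogues and partners were called in any.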

How the data were processed

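The authors deposited 1 table per library with estimated counts (expected counts), TPM and effective lengths per Ensembl transcript, made with kallisto on GRCh38 per the submitters' processing notes; the sources used here give no version or settings. Per the file headers, counts are unscaled by depth and TPM are scaled by effective length and library total. Transcripts were summed per gene through GENCODE 29 (90.0% of 188753 matched; the unmatched held 2.49% to 2.62% of counts) and rounded. edgeR 4.0.16 (TMM scaling, count minimum 10 by group, quasi-likelihood test, Benjamini-Hochberg adjustment over 13527 genes) was fitted over 18 libraries with 1 coefficient per group, or 1 per guide for comparisons of guides. CPM are TMM-scaled, and log2 CPM use a prior count of 2. The fits were tested on simulated data. In some runs every guide, control guides included, varied in each gene by a set amount that was not taken from these data. There the fit by group gave false calls above its nominal rate, and group calls are read beside summed guides. How far that rate holds for these libraries was not tested. DESeq2 1.42.0, other size factors, no count filter, a transcript length offset, a block by replicate number, 2 groups alone, summed guides and leaving out libraries or guides were tried. Named genes are the 10 targets, up to 4 called genes of each list by smallest p, the 3 genes most like CCN1, CCN2 and ANKRD1, and the guide targets; a few genes that this rule names are not reported here. The genes and lists were chosen with earlier results of these data known. Genes that overlap or share reads with a copy were not separated beyond the authors' estimates.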

Additional observations from a re-analysis of the deposited data

Results flagged for a closer look

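Guides with the same target differed for some of the 10 genes in edgeR's quasi-likelihood test of the difference itself, with 2 libraries a guide. KDM1A guide 3 was below KDM1A guide 2 for ANKRD1 (log2 difference -1.461, with 95.1 and 97.3 CPM against 266 and 264 CPM), CCN2 (-0.484), CCN1 (-0.423) and AJUBA (-0.246). For ANKRD1 both guide 3 libraries were below every control library and both guide 2 libraries above every one. Among SPP1 guides 1, 2 and 3 the adjusted p values were 0.000777 for CCN2, 0.0133 for ANKRD1 and 0.0202 for LATS2. Guide 3 had the lowest CCN2 (799 and 706 CPM) and LATS2 (68.4 and 57.5 CPM), and guide 2 the lowest mean ANKRD1 (37.6 and 52.6 CPM). No library stood apart from its group in the gap test over 40 sets of 4 or 6 libraries, a test that flags about 1 in 20 sets of independent libraries by chance. These libraries come in pairs by guide, so that rate may not hold here. Where guides lie apart, as for ANKRD1 in the KDM1A knockdown, their spread widens the range and can hide a stray library.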

How the results depend on the processing

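The counts between groups below are genes called by edgeR unless DESeq2 is named. In the CDKN1A knockdown against control, 2 of the 10 and 271 genes in all were called. These became 4 and 588 with the 2 groups alone, 1 and 172 with the replicate block, 1 and 69 with the transcript length offset, 0 and 1 with summed guides, and 1 of the 10 with no count filter, while DESeq2 called 553 genes. In the KDM1A knockdown, 4 of the 10 and 1224 became 1 and 585 with the length offset, 0 and 162 with summed guides, and 2 of the 10 with the 2 groups alone. In the SPP1 knockdown, 4 of the 10 and 738 became 2 and 299 with the length offset, 0 and 1 with summed guides, and 390 genes with the 2 groups alone. For KDM1A against CDKN1A, 3 and 2022 became 0 and 437 with summed guides and 982 genes with the length offset, and for SPP1 against KDM1A, 3 and 1611 became 0 and 244 with summed guides, and 762 and 998 genes with the length offset and the 2 groups alone. For SPP1 against CDKN1A, 1628 genes became 111 with summed guides and 760 with the length offset. With no count filter, 1 of the 10 differed between CDKN1A guides 2 and 1, against 0. Summing leaves 9 samples; the cause of the other changes was not tested. Leaving out 1 library or both of a guide gave 0 to 2 of the 10 and 42 to 447 genes for the CDKN1A knockdown, 0 to 4 and 417 to 1449 for the KDM1A knockdown, 0 to 4 and 7 to 991 for the SPP1 knockdown, 0 to 5 and 668 to 2375 for KDM1A against CDKN1A, 0 to 5 and 261 to 1951 for SPP1 against KDM1A, and 299 to 1741 genes for SPP1 against CDKN1A. By guide against control it gave 1 to 4 (CDKN1A guide 1), 2 to 7 (CDKN1A guide 2), 2 to 6 (each KDM1A guide) and 1 to 3 (SPP1 guide 1) of the 10. Between guides it gave 0 to 2 (CDKN1A 2 against 1), 2 to 4 (KDM1A 3 against 2), 0 to 3 (SPP1 2 against 1), 1 to 4 (SPP1 3 against 1), 0 to 3 (SPP1 3 against 2), 0 to 3 (control 2 against 1) and 1 to 5 (all SPP1 guides). Of log2 fold changes that were called or at least as large as their SE, 9 changed sign, all in these leave-outs and none of them called: ANKRD1 in the KDM1A knockdown (-0.491 to 0.971), AJUBA in the SPP1 knockdown (-0.223 to 0.042) and with SPP1 guide 3 (-0.141 to 0.008), CCN1 (-0.119 to 0.306) and CCN2 (-0.046 to 0.439) for KDM1A against CDKN1A, CCN2 for SPP1 against KDM1A (-0.432 to 0.052), AMOTL2 (-0.272 to 0.014) and AJUBA (-0.007 to 0.139) for SPP1 guide 3 against 1, and CCN1 for SPP1 guide 3 against 2 (-0.247 to 0.026). No deviation shared by libraries of the same replicate number was seen: over 36 pairs of guides, such deviations correlated between -0.12 and 0.07. Genes with few counts add noise to these correlations, so they cannot show whether the replicates were paired.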

Other observations

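The ratio of CCN2 to CCN1 counts was computed in each library after the levels of both had been seen. It was 0.966, 0.952, 0.812 and 0.819 in the CDKN1A knockdown libraries, 0.968, 0.974, 0.948 and 0.915 in the KDM1A knockdown libraries, and 1.029, 1.002, 0.728, 0.895, 0.899 and 0.683 in the SPP1 knockdown libraries, against 1.073, 1.085, 1.079 and 1.057 in the control libraries. All 14 knockdown libraries had a lower ratio than every control library, and the SPP1 libraries ranged most widely. The control guides, which differed for CCN2 itself, had close ratios. The ratio was chosen after its parts were known and was not tested.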
